A study of Mus musculus with 8 samples.

Results

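*Ajap1*, *Klk8*, *Fam135b*, *Erich3* and *Ucn2* are 5 genes that gave almost no reads in WT mouse sciatic nerves and more reads in nerves whose Schwann cells lack *Nae1*. They were chosen by these same measured values, a low level in WT nerves and a higher level in *Nae1* cKO nerves, among the 53090 genes that the tables list. Their difference between the genotypes is therefore a description, and no p value of it is given. The *Nae1* cKO mice carried 2 floxed *Nae1* alleles and a Cre recombinase expressed in Schwann cells, so that *Nae1* stays intact in the other cells of the nerve. The controls, labelled WT, were Cre-negative littermates with 1 or 2 floxed alleles according to the methods of the study, and the labels do not say which nerve had which. Sciatic nerves were taken at postnatal day 7 (P7), with 4 libraries per genotype (K2, L1, L5 and L8 for *Nae1* cKO, and K1, L3, L4 and L9 for WT), and total RNA depleted of ribosomal RNA was sequenced from stranded libraries. The labels do not say whether each library is a separate mouse, so the p values given for other genes measure the spread between these libraries.

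The product of *Nae1* is part of the E1 enzyme for NEDD8, a ubiquitin-like protein whose attachment to cullins switches on a large class of ubiquitin ligases. At P7 the Schwann cells of the nerve are building myelin. The 5 genes have no known common pathway. AJAP1 (Shrew-1) is a membrane protein of adherens junctions that binds E-cadherin complexes and, in brain, GABA-B receptors. KLK8, or neuropsin, is a secreted serine protease of the kallikrein family known from skin and hippocampus, which cleaves adhesion molecules and neuregulin-1. Urocortin 2, the product of *Ucn2*, is a secreted peptide of the corticotropin-releasing factor (CRF) family that acts on the receptor CRHR2. ERICH3 is a glutamate-rich protein tied to primary cilia in human cells, and FAM135B is a poorly characterised relative of FAM135A.

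The windows of 250 bases before the RefSeq start are shown for the genes that have one in the RefSeq table (build GRCm38.p6), to show that they differ widely in composition. Of the 5 genes, 3 matched. Each is printed 5′ to 3′ on the strand of the gene, ending at the base before the start, with capitals marking every match to 1 of 7 searched motifs.
*Ajap1* (minus strand, chr4:153482831-153483080): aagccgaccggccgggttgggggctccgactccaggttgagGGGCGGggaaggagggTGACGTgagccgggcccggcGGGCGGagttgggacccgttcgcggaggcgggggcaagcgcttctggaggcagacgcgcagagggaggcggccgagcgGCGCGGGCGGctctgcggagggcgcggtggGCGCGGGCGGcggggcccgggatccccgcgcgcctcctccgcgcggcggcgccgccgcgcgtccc
*Klk8* (plus strand, chr7:43797327-43797576): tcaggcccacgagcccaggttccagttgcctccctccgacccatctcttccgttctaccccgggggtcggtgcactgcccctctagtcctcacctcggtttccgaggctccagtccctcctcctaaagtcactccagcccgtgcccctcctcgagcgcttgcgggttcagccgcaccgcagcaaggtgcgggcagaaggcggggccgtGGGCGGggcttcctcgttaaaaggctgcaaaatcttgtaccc
*Erich3* (plus strand, chr3:154710883-154711132): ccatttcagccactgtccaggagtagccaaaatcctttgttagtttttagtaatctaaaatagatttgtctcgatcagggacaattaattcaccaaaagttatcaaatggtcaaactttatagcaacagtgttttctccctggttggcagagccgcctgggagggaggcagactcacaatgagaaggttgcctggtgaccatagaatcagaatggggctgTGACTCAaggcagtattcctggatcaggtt

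The window of *Ajap1* holds 43 CpG dinucleotides and 81.2% G and C, that of *Klk8* 18 and 65.2%, and that of *Erich3* 2 and 44%. The ratio of observed CpG to that expected from the numbers of C and G was ranked among all 32851 windows of the table. This ratio, rather than the count, lay at percentiles 97.7, 73.2 and 24.9, in the same order. The *Erich3* window belongs to a RefSeq start near that of a short model, Erich3-201, which begins inside the window at 154711108. The longest model, Erich3-202, begins upstream of it at 154663859 on the same strand, so the window lies inside that gene model. Motifs were searched on both strands. GGGCGG (the GC box) is in 32.7% of all windows, and matched 4 times in *Ajap1* and 1 time in *Klk8*. GCGNGGGCG (the EGR site) is in 4.70% of windows and matched 2 times in *Ajap1*, each match overlapping a GC box. TGACGT (the core of the cAMP response element, in 6.47% of windows) matched once in *Ajap1*. TGANTCA (AP-1, in 6.75%) matched once in *Erich3*, 30 to 24 bases before the RefSeq start, a stretch that holds the first base of Erich3-201. TGACNNNGC (the antioxidant response element, 10.2% of windows), CACGTG (E-box, 6.02%) and GGAATG (TEAD, 12.6%) matched none of the 3 windows. No motif was in all 3.

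Depth was 12962798 to 13855366 expected counts in *Nae1* cKO nerves and 13508752 to 14766770 in WT nerves. *Nae1* itself was at 43.8 to 57.2 CPM (counts scaled by TMM to 1000000 per library) in *Nae1* cKO nerves, against 77.7 to 89.8 CPM in WT nerves. The groups did not overlap (p = 0.0286 in a two-sided exact permutation test, which with 4 against 4 can go no lower). *Nae1* cKO nerve K2 stood apart: 7SK, a noncoding RNA, took 4.70% of its counts, where L1, L5 and L8 had 1.94% to 2.43% and WT nerves 1.97% to 2.66%. The summed level of 10 macrophage markers was 404 to 525 CPM in *Nae1* cKO nerves, against 229 to 252 CPM in WT nerves (7 markers higher). That of 5 fibroblast markers was 17077 to 18924 CPM, against 13694 to 16782 CPM (4 higher), and that of 10 skeletal muscle markers was 64.3 to 178 CPM, against 130 to 2115 CPM (4 lower). Markers were counted at an adjusted p under 0.05 with no fold limit, where 14.1% of all genes tested were higher and 12.3% lower. In whole nerve, fewer cells of a type and less RNA per cell cannot be told apart, and the part of cell makeup in the values of the 5 genes was not tested.

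*Ajap1* (ENSMUSG00000039546.9, chr4:153373221-153482811, minus strand of GRCm38) varied the least of the 5 genes between mutant nerves in counts and CPM, though not in TPM. It had 264, 251, 269 and 271 expected counts in *Nae1* cKO nerves K2, L1, L5 and L8, against 6, 5, 5 and 3 in WT nerves K1, L3, L4 and L9. All 4 mutant nerves were within a narrow band far above every WT nerve. On the CPM scale the gene was at 18.6 ± 0.937 in *Nae1* cKO nerves and 0.349 ± 0.0826 in WT nerves (SD, n = 4 each). The summed counts, 1055 against 19, gave a depth-scaled ratio of 52.8 (95% exact conditional interval 33.6 to 88.1, which covers counting error only, as do all such intervals here). The fitted log2 fold change was 5.69 (SE 0.18). Each SE here is the log2 fold change divided by the square root of the test's F value. It can understate the error where WT counts are few.

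*Klk8* (ENSMUSG00000064023.4, chr7:43797577-43803826, plus strand) had 241, 214, 246 and 245 expected counts in *Nae1* cKO nerves K2, L1, L5 and L8, against 7, 10.6, 9 and 3.36 in WT nerves K1, L3, L4 and L9. The groups did not overlap, and the lowest mutant nerve, L1, was still far above the highest WT nerve. CPM averaged 16.7 ± 1.29 in *Nae1* cKO nerves and 0.548 ± 0.237 in WT nerves (SD, n = 4 each). The ratio of summed counts (946 against 30) was 29.99 (interval 20.9 to 44.7) and the log2 fold change 4.89 (SE 0.23). In 6 of 8 nerves its expected count was not a whole number, as RSEM gives where fragments also fit another gene. Its first 382 exonic bases, of 1540 in all, are shared with the noncoding gene *2310002F09Rik* on the other strand. The strand setting of the counting is not given in the sources used here, so reads of that stretch cannot be told apart.

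*Fam135b* (ENSMUSG00000036800.7, chr15:71431609-71727838, minus strand) came closest to silence in WT nerves. It had 128, 96, 128 and 111 expected counts in *Nae1* cKO nerves K2, L1, L5 and L8, against 2, 0, 0 and 1 in WT nerves K1, L3, L4 and L9. With 3 counts over all 4 WT nerves, the ratio of summed counts (463 against 3) was 147, with an interval from 49.9 to 714. CPM averaged 8.17 ± 1.24 in *Nae1* cKO nerves and 0.0564 ± 0.0706 in WT nerves (SD, n = 4 each), and the log2 fold change was 6.98 (SE 0.41). That SE is narrower than the interval of the ratio and understates the error from 3 WT counts. Without WT nerve K1, which held 2 of the 3 WT counts, the log2 fold change was 7.91, and without WT nerve L4 it was 6.6. The deposited tables give this gene a length of 4623 bases, while its transcript in GENCODE vM21 (Fam135b-201, a later version of the gene model) has 18692, so its TPM and FPKM rest on the shorter model.

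*Erich3* (ENSMUSG00000078161.8, chr3:154663859-154767790, plus strand) had 67, 99, 107 and 112 expected counts in *Nae1* cKO nerves K2, L1, L5 and L8, against 0, 14, 2 and 1 in WT nerves K1, L3, L4 and L9. The groups did not overlap, but 14 of the 17 WT counts came from nerve L3. The ratio of summed counts (385 against 17) was 21.5 (interval 13.3 to 37.4), and 90.8 (interval 30.9 to 442) without WT nerve L3. The log2 fold change was 4.39 (SE 0.58) with all nerves and 6.34 without WT nerve L3. CPM averaged 6.74 ± 1.22 in *Nae1* cKO nerves and 0.309 ± 0.473 in WT nerves (SD, n = 4 each). *Gm20389*, an antisense gene that overlaps *Erich3*, had 1 to 11 counts in *Nae1* cKO nerves and 0 to 1 in WT nerves, and *Gm38139* on the same strand had 0 to 1 and 0 to 2.

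*Ucn2* (ENSMUSG00000049699.4, chr9:108986010-108987164, plus strand) differs from the other 4 genes, and the description "switched on" goes beyond its values. It had 12, 22, 18 and 14 expected counts in *Nae1* cKO nerves K2, L1, L5 and L8, against 6, 5, 6 and 5 in WT nerves K1, L3, L4 and L9. The groups did not overlap, but the highest mutant nerve, L1, held only 22 counts and the lowest, K2, held 12. The ratio of summed counts (66 against 22) was 2.85, with an interval from 1.74 to 4.86 that lies wholly below the intervals of the other genes. CPM averaged 1.16 ± 0.287 in *Nae1* cKO nerves and 0.407 ± 0.0349 in WT nerves (SD, n = 4 each), and the log2 fold change was 1.49 (SE 0.32).

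**Figure D1:**
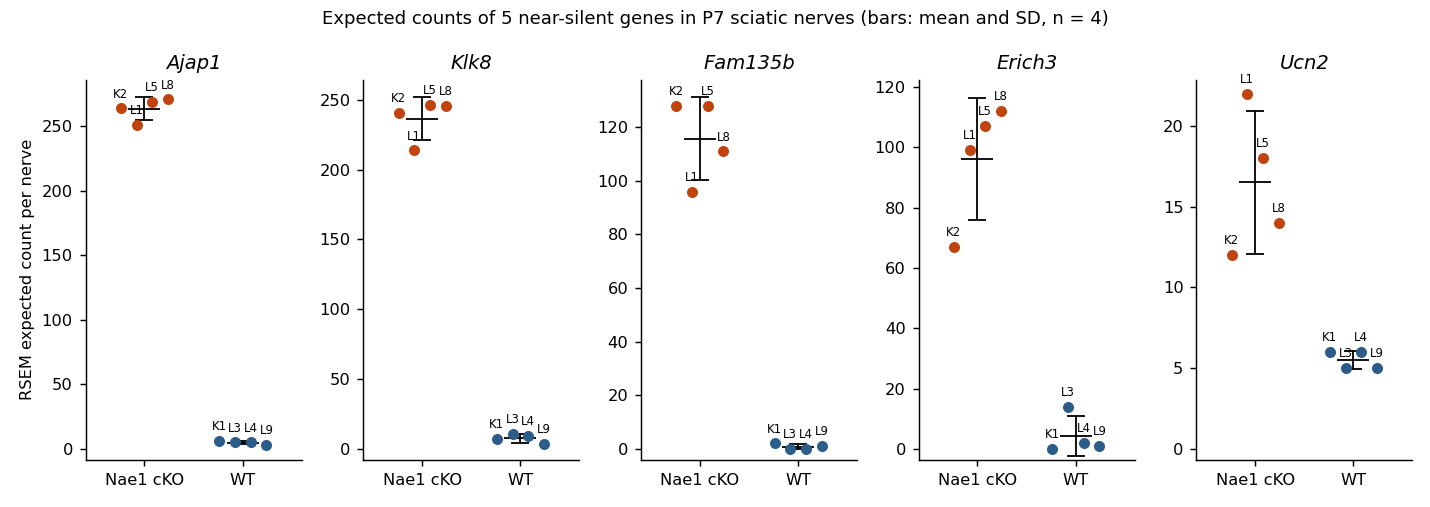
RSEM expected counts (linear y axes that include 0, 1 panel per gene) in *Nae1* cKO nerves on the left and WT nerves on the right of each panel, with 1 point per nerve and black bars for the mean and SD (n = 4). WT points stay at or below 14 counts in every panel, and *Nae1* cKO points lie between 251 and 271 for *Ajap1* but only between 12 and 22 for *Ucn2*.

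All 5 genes passed edgeR's filter on low counts and were called higher in *Nae1* cKO nerves (adjusted p under 0.05 and over 2-fold), as were 727 of the 17090 genes tested (4.25%). Since this contrast chose them, that count was fixed by the choice and nothing is read from it. Of all genes called, 63.1% were higher in *Nae1* cKO nerves, and 79.4% with library totals in place of TMM scaling. The genes tested with a mean under 1 CPM in WT nerves numbered 1145, the 5 included, and 202 of them (17.6%) were called higher and 1 lower. A gene so low in WT nerves can pass the filter through the *Nae1* cKO group alone and then had to come out higher, so these counts are a description. Of the 202, 107 are protein coding, 23 had a fitted fold over 16 and 19 were above 5 CPM in *Nae1* cKO nerves. By fold among the 202, *Fam135b* ranked 5, *Ajap1* 8, *Klk8* 10, *Erich3* 16 and *Ucn2* 130.

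**Figure D2:**
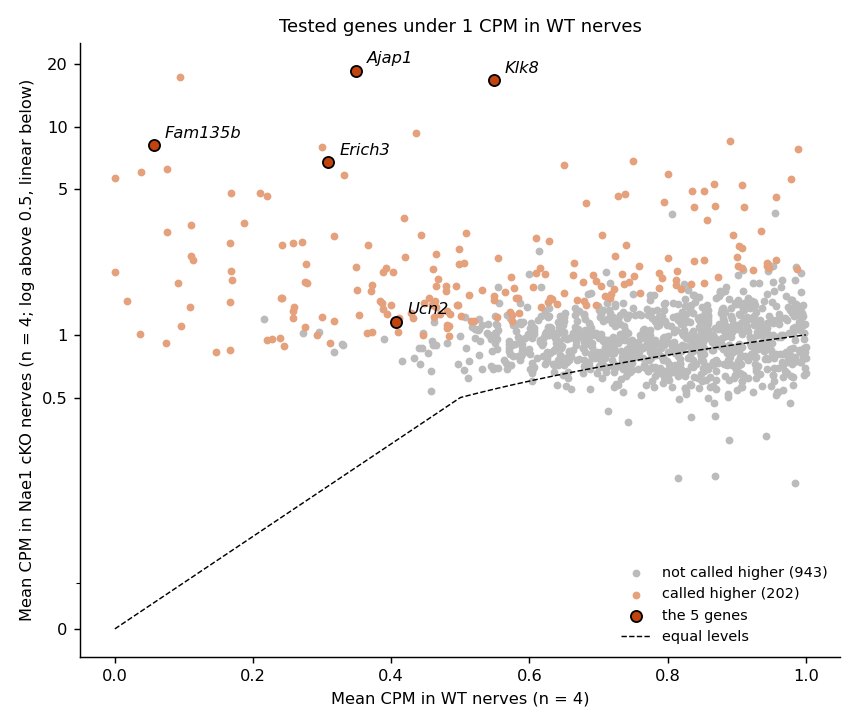
Mean CPM in *Nae1* cKO nerves (y axis, logarithmic above 0.5 and linear below) against mean CPM in WT nerves (linear x axis) for the 1145 tested genes under 1 CPM in WT nerves, with 1 point per gene (n = 4 nerves per mean), the 202 genes called higher in orange and the dashed line at equal levels. *Ajap1* and *Klk8* sit near the top at 18.6 and 16.7 CPM, and *Ucn2* at 1.16 CPM lies near the lower edge of the genes called.

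Levels of different genes are compared per length, in TPM. *Klk8* was at 14.2 to 21.8 TPM in *Nae1* cKO nerves, against 0.19 to 0.78 TPM in WT nerves. In *Nae1* cKO nerves its mean lay at percentile 82.4 of all genes tested, against 10.5 in WT nerves. *Ajap1* followed at 3.78 to 8.41 TPM in *Nae1* cKO nerves, against 0.06 to 0.11 TPM in WT nerves (percentile 56.4 against 0.293). *Klk8* was above *Ajap1* in all 4 mutant nerves with no overlap, and *Ajap1* was above the other 3 genes with none.

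The lower 3 genes were not separated in every nerve. *Erich3* was at 0.89 to 1.80 TPM in *Nae1* cKO nerves, against 0 to 0.15 TPM in WT nerves. *Fam135b* was at 1.04 to 1.48 TPM, against 0 to 0.02 TPM, and *Erich3* was the higher of this pair in 2 of 4 mutant nerves. *Ucn2* was at 0.43 to 1.43 TPM, against 0.23 to 0.31 TPM, and lay below *Fam135b* in 3 of 4 mutant nerves. In *Nae1* cKO nerves these 3 genes stayed between percentiles 15.3 and 23.4 of all genes tested.

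The scale changed the picture within the mutant group. On CPM, nerve K2 was at 1.08 times the mean of the other *Nae1* cKO nerves for *Ajap1*, 1.11 for *Klk8* and 1.24 for *Fam135b*, but at 0.683 for *Erich3* and 0.720 for *Ucn2*. On TPM, nerve K2 was the lowest for all 5 genes, between 0.415 times the mean of the others for *Ucn2* and 0.741 times for *Fam135b*. In K2 a TPM value was 0.501 times its FPKM value, against 0.717 to 0.847 times in the other mutant nerves and 0.618 to 0.765 times in WT nerves. K2 also has the highest share of 7SK, a short and abundant RNA, and the part of 7SK in its TPM values was not tested. The spread between *Nae1* cKO nerves, as SD over mean, was 5.04% on CPM and 30.1% on TPM for *Ajap1*. It was 7.74% and 17.9% for *Klk8*, 18.1% and 26.9% for *Erich3*, and 24.8% and 47.2% for *Ucn2*. For *Fam135b* it did not rise, at 15.1% on CPM and 14.6% on TPM.

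The assigned transcripts also moved between mutant nerves. For *Erich3*, with 4 transcripts, RSEM's gene length ran from 2885 bases in K2 to 4397 in L1, so its TPM rests on that assignment too. For *Ajap1* it ran from 2098 bases in L1 to 2691 in K2. RSEM's gene length is the mean of transcript lengths weighted by their estimated abundance, and the gene has a coding transcript of 3048 bases (Ajap1-201) and one of 600 bases annotated as a target of nonsense-mediated decay (Ajap1-202). The lengths give the short transcript 14.6% of *Ajap1* transcripts in *Nae1* cKO nerve K2, 38.8% in L1, 34.8% in L5 and 28.4% in L8. In WT nerves it was 0% in K1, L3 and L9 and 25.7% in L4, from 3 to 6 counts each, which is too few to compare with the mutant nerves. Since the shares come from 251 to 271 counts per mutant nerve over a shared sequence, their error is unknown.

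**Figure D3:**
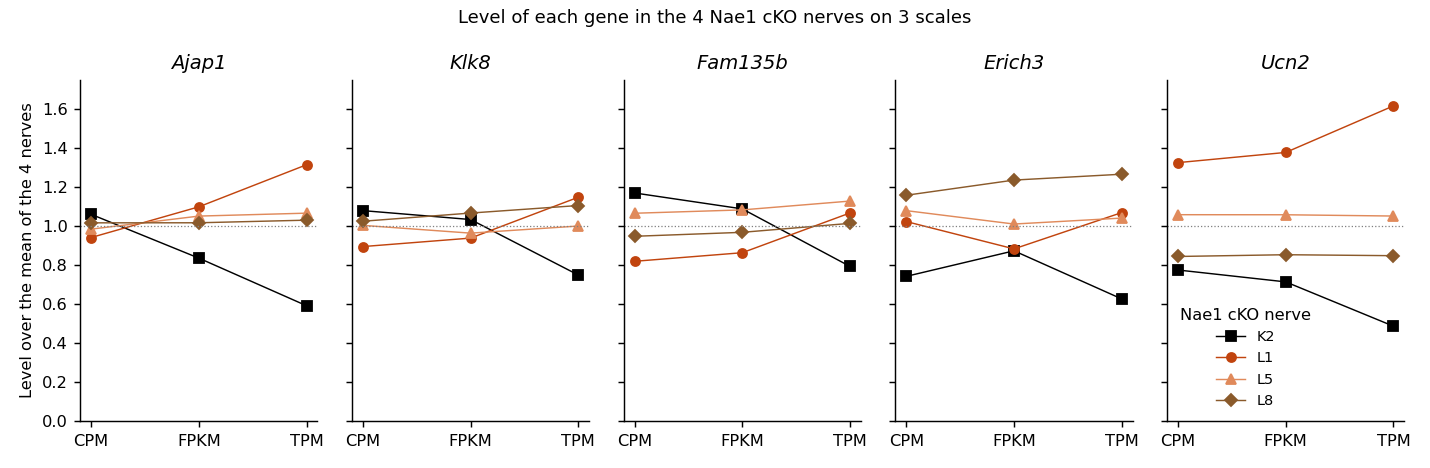
Level of each gene in the 4 *Nae1* cKO nerves over the mean of those nerves (linear y axis; dotted line at 1) on the CPM, FPKM and TPM scales, with 1 line per nerve. The black squares of nerve K2 fall to the bottom of every panel on TPM, while on CPM they lie at the top for *Ajap1*, *Klk8* and *Fam135b*.

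Around *Klk8*, a run of adjacent kallikrein genes was higher in *Nae1* cKO nerves. *Klk9*, which ends 0.82 kb before *Klk8* on the same strand, had 22 to 37 counts in *Nae1* cKO nerves and 1 to 4 in WT nerves (2.04 ± 0.405 against 0.168 ± 0.111 CPM, SD, n = 4 each). Its log2 fold change was 3.54 (SE 0.40). *Klk10*, 12.2 kb before *Klk8*, had 40 to 57 counts in *Nae1* cKO nerves and 1 to 2 in WT nerves. Its log2 fold change was 4.81 (SE 0.33). Both genes passed the filter through the *Nae1* cKO nerves and had to come out higher, so no p value is given. KLK9 and KLK10 are secreted members of the same protease family. Per length, *Klk8* at 19.0 ± 3.40 TPM in mutant nerves was far above *Klk10* at 2.07 ± 0.789 and *Klk9* at 1.16 ± 0.422 TPM (SD, n = 4 each).

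The next kallikreins on that side fell below the filter and are named after their values were seen. *Klk11* had 8 to 15 counts in *Nae1* cKO nerves and 0 to 1 in WT nerves, a ratio of summed counts of 19.5 (interval 5.06 to 166). *Klk12* had 2 to 8 counts and 0 to 1 counts, a ratio of 18.1 (interval 2.87 to 751). *Klk13* had 4 to 13 counts in *Nae1* cKO nerves and 0 in every WT nerve. Against a floor of 3 counts over the WT group its ratio was 8.56, which leaves out counting error in the mutant nerves. Every mutant nerve was above every WT nerve in these 3 genes, but for *Klk12* the closest nerves had 2 counts and 1 count. On the other side of *Klk8* the pattern ended. *Klk7*, 13.7 kb to the right by start position, had 0 to 2 counts in either genotype, *Klk6* had at most 1, and *Klk5*, *Klk4* and *Klk15* had none in any of the 8 nerves. At the far left end *Klk14* had none in *Nae1* cKO nerves and at most 1 in WT nerves, and *Klk1*, 428 kb to the right, had at most 4.

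The noncoding gene *2310002F09Rik* (chr7:43695209-43797958, minus strand, 103 kb) spans *Klk13* to *Klk9* and touches *Klk14* and *Klk8* at its ends. It had 63.8 to 73.5 counts in *Nae1* cKO nerves, against 1 to 4.44 in WT nerves, with a log2 fold change of 4.78 (SE 0.33). This gene too passed the filter through the *Nae1* cKO nerves, so no p value is given. *Klk8* was chosen by its rise, and *Klk9* and *Klk10* passed the filter through the *Nae1* cKO nerves. *Klk11* to *Klk13* were named after their values were seen. Nothing is therefore read from the number of kallikreins whose genotypes were apart. *Klk8* to *Klk13* all lie in or touch the span of *2310002F09Rik*. *Klk9* to *Klk13* share 0 exonic bases with it in GENCODE vM21, while *Klk8* shares 24.8% of its exonic bases and *Klk14* 22.6%. The annotation used for the counting may differ from this release.

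**Figure D4:**
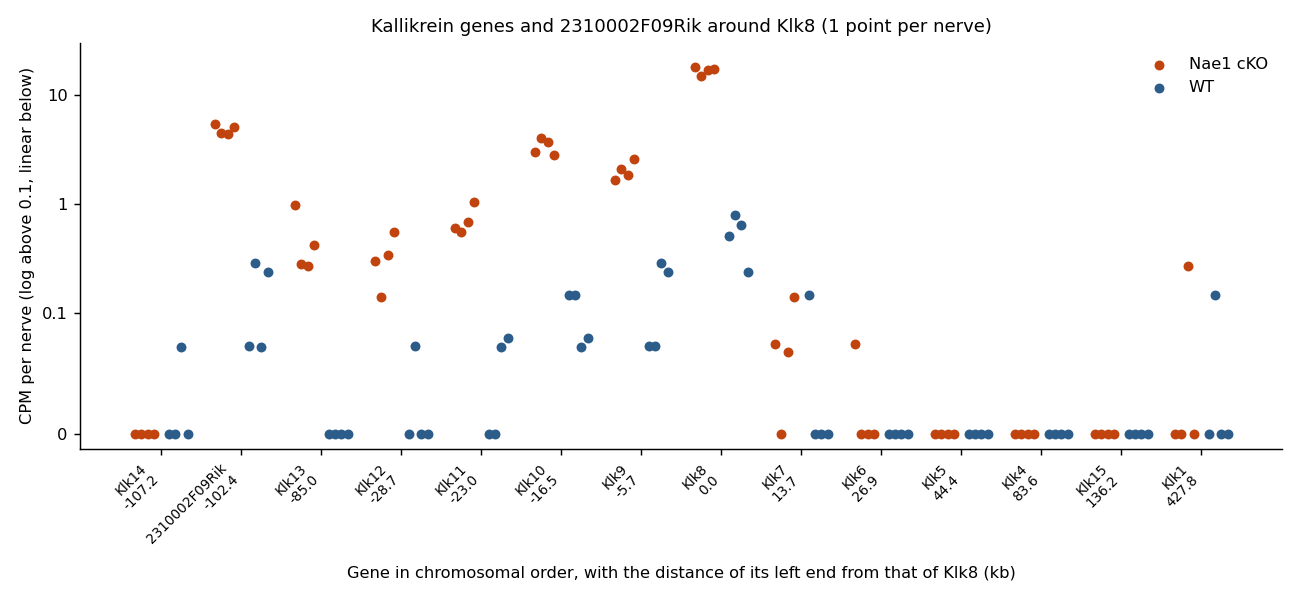
CPM per nerve (y axis, logarithmic above 0.1 and linear below) of the kallikrein genes and *2310002F09Rik* in chromosomal order, with the distance in kb of each gene's left end from that of *Klk8*, *Nae1* cKO points left and WT points right for each gene. The mutant points stand above the WT points for *2310002F09Rik* and for *Klk13* through *Klk8*, and both groups lie at or near 0 for *Klk14* and to the right of *Klk8*.

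Beyond kallikreins, the genes that the 5 proteins are known to act with were counted from lists of 52 genes, the kallikreins included. Of these, 30 were tested, and 8 were higher and 3 lower at an adjusted p under 0.05 with no fold limit, where 14.1% of all genes tested were higher and 12.3% lower. *Klk9*, *Klk10* and *Nrg1* are among the 8 and had a mean under 1 CPM in WT nerves. They passed the filter through the *Nae1* cKO nerves, so they had to come out higher. Without the kallikreins, 6 of 28 tested genes were higher, *Nrg1* among them, and 3 lower. Of 5 tested substrates and inhibitors of neuropsin, 3 were higher, again with *Nrg1* among them. The median log2 fold change of the 5 was 0.55, where that of all genes tested was 0.0066. *Nrg1*, the gene of neuregulin-1, an axonal signal for Schwann cells that injured Schwann cells also make, had 57.9 to 154 counts in *Nae1* cKO nerves, against 3 to 16 in WT nerves. Its level was 6.82 ± 3.38 CPM, against 0.750 ± 0.466 CPM (SD, n = 4 each). The log2 fold change of *Nrg1* was 3.18 (SE 0.47), and no p value is given because of how it passed the filter. *L1cam*, an adhesion molecule of Schwann cells and axons, was at 78.0 ± 6.07 CPM, against 46.8 ± 12.5 CPM (SD, n = 4 each; log2 fold change 0.74, adjusted p = 0.0047, edgeR). *Fn1*, the gene of fibronectin, was at 1108 ± 189 CPM, against 756 ± 115 CPM (SD, n = 4 each; log2 fold change 0.55, adjusted p = 0.012, edgeR), and its call was lost without WT nerves K1 and L4 (adjusted p = 0.11, edgeR) and on log2(TPM + 1) (adjusted p = 0.058, limma). *Ephb2* and *Serpinb6a* did not pass, and *F2rl1* was below the filter.

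The partners of AJAP1 included *Cdh1*, the gene of E-cadherin, which is known from the autotypic junctions of myelinating Schwann cells. It fell to 99.1 ± 10.6 CPM in *Nae1* cKO nerves, against 198 ± 25.8 CPM in WT nerves (SD, n = 4 each), a log2 fold change of −1.0 (SE 0.11, adjusted p = 3.2e-05, edgeR). Every mutant nerve, at 90.5 to 112 CPM, lay below every WT nerve, at 170 to 221 CPM. The other tested partners, *Ctnnb1*, *Bsg* and *Gabbr1*, did not pass, and *Gabbr2* and the AJAP1 relative *Pianp* were below the filter.

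The genes around urocortin 2 were not detectable at this depth. *Crh*, *Ucn*, *Ucn3* and the receptor gene *Crhr1* had no count in any of the 8 nerves, *Crhr2* had at most 2 counts per nerve and the binding protein gene *Crhbp* at most 1, so none of the 6 could be tested. *Fam135a*, the relative of *Fam135b*, was at 68.4 ± 6.55 CPM in *Nae1* cKO nerves and 68.1 ± 3.87 CPM in WT nerves (SD, n = 4 each) and did not pass. *Erich1* did not pass either, and *Erich2*, *Erich5* and *Erich6* were below the filter.

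Of 17 genes of cilium transport and Hedgehog signaling, listed for the link of ERICH3 to cilia, 3 were higher and 2 lower, shares near those of all genes tested (14.1% higher and 12.3% lower), and the median log2 fold change was 0.0062. *Ptch1*, the Hedgehog receptor, was higher by 0.33 on the log2 scale (edgeR adjusted p = 0.011), *Gli3*, a Hedgehog transcription factor, by 0.50 (adjusted p = 0.020) and *Gpr161*, a ciliary receptor, by 0.30 (adjusted p = 0.047). The call of *Ptch1* was lost in 2, that of *Gli3* in 8 and that of *Gpr161* in 11 of 20 alternatives. *Kif3a*, a motor subunit, fell by 0.40 on the log2 scale (edgeR adjusted p = 0.010) but was not called with library totals or on FPKM or TPM. *Ift172*, a cilium transport subunit, fell by 0.30 (edgeR adjusted p = 0.021) but turned positive on FPKM and TPM. Markers of multiciliated cells summed to 25.9 to 34.5 CPM in *Nae1* cKO nerves and 22.1 to 24.1 CPM in WT nerves. Of 3 tested markers, 1 was higher, *Cfap43*, at a mean of 13.4 CPM against 6.93 CPM. The markers did not move together. The mean of *Dnah9* was higher (10.5 against 8.42 CPM). Those of *Ccdc39* (4.98 against 5.78 CPM) and of *Dnah5*, below the filter (0.0721 against 1.06 CPM), were lower. The part of such cells was not tested.

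Markers of neurons and keratinocytes, listed because neuropsin is known from brain and skin, were low in both genotypes. Of 11 neuron markers, 6 were tested. At an adjusted p under 0.05, 2 were higher (*Snap25* and *Tubb3*) and none lower, against 14.1% and 12.3% of all genes tested. *Snap25*, at 0.90 CPM in WT nerves, passed the filter through the *Nae1* cKO nerves, so nothing is read from its call. The other 4 tested, *Stmn2*, *Prph*, *Nefl* and *Nefm*, had lower means in *Nae1* cKO nerves and did not pass, and the 6 had a median of −0.41 on the log2 scale. They summed to 20.2 to 29.3 CPM in *Nae1* cKO nerves and 16.1 to 24.8 CPM in WT nerves, and *Rbfox3* was at 0 in all 8 nerves. The 7 keratinocyte markers summed to 1.79 to 2.44 CPM, against 1.45 to 2.37 CPM, with none called among 1 tested and *Krt14* and *Dsg3* at 0 in all 8 nerves.

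The chromosomal neighbours of the other genes did not show a run like that of the kallikreins. Among the 3 nearest tested genes per side within 500 kb, 19 in all for the 5 genes, 6 were higher and 1 lower. Of the 6, 3 were those of *Klk8* described above, which passed the filter through the *Nae1* cKO nerves. For the other 4 genes it was 3 higher and 1 lower of 14, where 14.1% of all genes tested were higher and 12.3% lower. None of the 3 neighbours of *Ajap1* and not the only neighbour of *Fam135b* (*Col22a1*) passed. Next to *Erich3*, *Cryz*, a quinone reductase gene 40.7 kb to the left, was at 12.5 CPM in *Nae1* cKO nerves and 5.95 CPM in WT nerves (log2 fold change 1.07, SE 0.21, adjusted p = 0.0024, edgeR), and the other 3 neighbours did not pass. Right of *Ucn2*, *Pfkfb4* (log2 fold change 0.53) and *Shisa5* (0.54) were higher, with adjusted p = 0.0015 and 0.0023 (edgeR). *Col7a1*, which ends 1.14 kb before *Ucn2*, fell by 0.42 on the log2 scale (adjusted p = 0.021, edgeR), but turned positive on FPKM and TPM and lost its call without *Nae1* cKO nerve L1 or WT nerve K1.

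Likeness of pattern was taken as the root mean square difference of log2 CPM profiles over the 8 nerves, each centred on its own mean, a measure that the genotype difference dominates. The nearest genes to *Ajap1* were *Slc7a11* (0.32), *Nqo1* (0.35) and *Cacng3* (0.50), where the median over all genes tested was 2.64. The same 3 genes were nearest to *Fam135b*, at 0.28, 0.48 and 0.60. *Klk8* was nearest to *Nqo1* (0.40), *Osgin1* (0.51) and *Amer2* (0.56), and *Erich3* to *Igfbp2* (0.66), *Cacng3* (0.79) and *Amer2* (0.81). *Ucn2* had another set, *Fbxo5* (0.10), *Asphd2* (0.14) and *Haspin* (0.15), with a median over the genes searched of 0.67.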

How the data were processed

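Gene tables of 8 P7 sciatic nerves (4 *Nae1* cKO, 4 WT, grouped by the genotype label) were used. The authors deposited RSEM expected counts (estimated, unscaled), TPM (scaled to 1000000 per library) and FPKM per gene, with gene lengths. STAR, RSEM, FastQC 0.11.5 and the build GRCm38 stand in the submitters' notes, whereas the methods of the study name TopHat and Cuffdiff. For the annotation release and strand setting, the entry is: not given in the sources used here. GENCODE vM21 gave positions for 52489 of 53090 identifiers. Multi-mapped reads split by RSEM can move counts between overlapping or similar genes.

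Rounded expected counts were used. Genes kept by filterByExpr (17090) were compared with edgeR 4.0.16 (R 4.3.3; TMM, robust quasi-likelihood test, Benjamini-Hochberg), on all 8 libraries with no covariate. The common biological coefficient of variation was 0.158. The code was checked on simulated data. Ratios of summed counts were scaled by TMM library size. Replicates of a group differed by more than sampling noise (chi-square per gene 4.07 to 56.9). Alternatives used DESeq2 1.42.0, limma 3.58.1, other scalings, filters and pseudocounts, the letter of the sample name, and each nerve left out.

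The 5 genes, the lists and the neighbours were chosen with earlier results of these data known. Named genes are the 5, up to 4 per list by adjusted p, neighbours, and the 3 nearest profiles without clone names. Other list members were named after their values were seen. Promoter windows came from RefSeq. The Schwann cell marker list is not reported here.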

Additional observations from a re-analysis of the deposited data

Results flagged for a closer look

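In 4 of 44 groups of 4 nerves tested, 1 nerve lay far from the others of its group. For normally distributed values chance gives this in about 1 of 20 groups. That rate does not hold for very low counts or tied lengths, such as those of *Erich3* and *Ajap1* in WT nerves. *Erich3* in WT nerve L3 was at 1.01 CPM, the highest of the WT nerves, with 14 counts against 0 to 2 in the others. The RSEM length of *Ajap1* in WT nerve L4 was 2418 bases, the lowest, where the other WT nerves had 3048. *Fn1* in *Nae1* cKO nerve K2 was at 825 CPM and *Gli3* in the same nerve at 17.5 CPM, each the lowest of its group.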

How the results depend on the processing

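The 5 genes were chosen by the contrast that all 20 alternatives recompute, so their calls there say nothing of stability. Their log2 fold changes ran from 2.73 to 5.89 for *Ajap1*, 3.72 to 5.14 for *Klk8*, 1.19 to 7.91 for *Fam135b*, 1.19 to 6.34 for *Erich3* and 0.55 to 1.65 for *Ucn2*. The low ends come from limma on log2(TPM + 1), whose pseudocount understates low genes. There and on log2(FPKM + 1) *Ucn2* was under 2-fold. The median log2 fold change of all genes was 0.0066 with TMM, 0.16 with library totals and 0.10 to 0.16 with limma on FPKM or TPM. Genes called (1153) came to 617 on log2(FPKM + 1) and 484 on log2(TPM + 1), and those higher (727) to 374 on log2(TPM + 1). Genes under 1 CPM in WT nerves called higher (202) came to 347 with no filter, 63 on log2(FPKM + 1) and 45 on log2(TPM + 1). Of the listed pathway and family genes, 4 rather than 8 were higher on log2(TPM + 1) and also without WT nerves K1 and L4, the nerves with most muscle RNA, an alternative chosen after seeing the data. Of them, 1 rather than 3 was lower with library totals, on log2(TPM + 1), and on log2(FPKM) with a pseudocount of 1 or 0.1. *Ift172* turned positive on log2(TPM + 1) (0.099) and on log2(FPKM) with either pseudocount (0.128 and 0.134), as did *Col7a1* (0.066, 0.070 and 0.072). Neighbours called came to 4 rather than 7 on log2(TPM + 1). Apart from the pseudocount, the causes were not tested. No paired analysis was possible because the groups share no replicate numbers. Counts of 0 to 14 limit the WT levels, and no share of reads from a given cell type can be had from whole nerve.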

Other observations

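Among the protein-coding genes under 1 CPM in WT nerves, those with the largest fitted rises beside the 5 genes were named after their values were seen. *Prss56*, a serine protease gene known from boundary cap cells, had 15 to 43 counts in *Nae1* cKO nerves and 0 in every WT nerve. Against a floor of 3 counts over the WT group its ratio was 35.8, which leaves out counting error in the mutant nerves. *Adh7*, a retinol dehydrogenase gene, had 98 to 416 counts in *Nae1* cKO nerves and 1 to 2 in WT nerves. *Cacng3*, which encodes an auxiliary subunit of AMPA receptors, had 46 to 115 counts in *Nae1* cKO nerves and 0 to 1 in WT nerves. *Cited1*, a transcriptional coregulator gene, had 46 to 143 counts in *Nae1* cKO nerves and 0 to 2 in WT nerves. These 4 genes were picked by the size of their rise, so nothing is read from the gap between their genotypes.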
